A study of Mus musculus with 22 samples.

Results

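The fibrillar collagens, fibronectin, tenascin C and their partners in the connective tissue matrix outside cartilage were followed in mouse forelimbs at embryonic day 13.5, with and without Chsy1. The members are Col1a1, Col1a2, Col3a1, Col5a1, Col5a2, Fn1, Fbn1, Tnc, Postn and Sparc, and they were found by gene name or by an accession of the same gene among the non-control probes. They make up 10 of 27649 genes and unnamed features on the array and 22 of its 41174 probes. The wild-type group held 9 samples and the knockout group, labelled Chsy-1 knockout, held 13, all of strain 129 and of the same embryonic age. No treatment is named for either group, and the labels do not say which part of Chsy1 was altered or whether embryos were pooled. The p-values therefore describe the spread among samples, which may be technical. Cy5 marked the forelimb RNA and Cy3 a universal mouse reference RNA that was common to the arrays. A level below is therefore a log2 ratio to that reference, and a difference is the knockout mean minus the wild-type mean on the same scale.

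Fibrillar collagens assemble into the cable-like fibrils that give skin, tendon, bone and loose connective tissue their tensile strength. Cells lay down a fibronectin network that helps to place new fibrils, fibrillin builds the microfibrils around which elastic fibres form, and tenascin C, periostin and SPARC are matricellular proteins, which tune adhesion and fibril assembly more than they bear load. In the developing limb these genes are used by mesenchyme, perichondrium, tendon and muscle connective tissue. Chsy1 encodes a synthase that extends chondroitin sulfate chains, the long sugars carried by proteoglycans of the same matrix.

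The arrays had between 27214 and 30599 of 43379 non-control spots well above background in Cy5, and no non-control spot was saturated. The number of arrays limits the precision. Chsy1 checked the labels: wild-type arrays averaged 1.73 ± 0.28 (SD, n = 9) and arrays labelled knockout -4.38 ± 1.39 (SD, n = 13), a difference of -6.11 (SE 0.44, limma adjusted p 1.27e-08). The array labelled knockout 1 stood apart, with 33.6% of the wild-type mean ratio of Chsy1, while the other 12 knockout arrays had 0.869% to 1.82%. All 6 slides held both genotypes, but position 1 had wild-type arrays alone (6) and positions 3 and 4 had knockout arrays alone (6 and 4). Only position 2, with 3 arrays of each genotype, allows a comparison within a position. There the wild-type arrays were on slides 1, 2 and 3 and the knockout arrays on slides 4, 5 and 6. Genotype and slide therefore cannot be told apart at position 2. All 10 forelimb and limb mesenchyme markers were above background on every array, and so were the hindlimb markers Tbx4, Pitx1 and Isl1, with Pitx1 at a wild-type mean of 5.64.

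None of the 10 matrix genes passed the test. In limma, 0 of 10 had an adjusted p under 0.05, beside 0.0215% of the 18638 genes and unnamed probes tested, and 1 of 10, Tnc, had an unadjusted p under 0.05, beside 5.33% of all. The fitted difference was below 0 in 9 of 10 members, beside 53.4% of all tested, but with median centring in place of loess it was below 0 in 0 of 10 (0.064 to 0.46), where the median over all genes was itself 0.24. Relative to that median, 8 of 10 were lower, and the members' median was -0.036. After loess, the setting of all other values unless stated, the members' median difference was -0.14, and the median over all genes was -0.0072. The smallest adjusted p of any member was 0.917. For 9 of 10 members the 95% interval of the difference lay within 1.5-fold in either direction, which held for 96.6% of all tested genes, and Postn was the exception. In these whole-limb samples, fewer cells of a type and less RNA per cell cannot be told apart.

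These figures moved with a few arrays. Without wild-type 5 the members' median difference was -0.061 with 8 of 10 below 0, and without the array labelled knockout 1 it was -0.12 with 8 of 10 below 0. Without wild-type 1 it was -0.19. On the 6 arrays of position 2 it was -0.43 with 10 of 10 below 0, and without the array labelled knockout 1 it was -0.33 there with 9 of 10 below 0. On the 6 arrays of position 2, Col3a1, Col5a2, Fn1, Fbn1 and Tnc, 5 of 10 members, had an unadjusted limma p under 0.05, beside 2.34% of all genes, each with an adjusted p of 0.9995. Without the array labelled knockout 1, a subset chosen after seeing the data, 3 of 10 members did, beside 726 of 18638 genes. Both counts, and the medians of position 2, rest on arrays whose genotype and slide cannot be told apart. The members also moved together from array to array, so the genes counted are not independent. No member was called in any of these fits.

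Type I collagen, the main fibril of bone, tendon and skin, is built from the chains of Col1a1 and Col1a2. The Col1a1 probe used here (chromosome 11, 94767851 to 94767910; all probe positions are given as the files have them, on mm8) ranged in wild type from -1.35 through a median of -0.75 to 0.49, and in knockout from -1.37 through -0.74 to -0.29. The medians almost coincided, and 12 of 13 knockout arrays lay inside the wild-type range. The means were -0.58 ± 0.58 (SD, n = 9) and -0.72 ± 0.36 (SD, n = 13), and the difference was -0.14 (95% interval -0.53 to 0.24, limma adjusted p 0.96). The wild-type extremes were wild-type 1 at the bottom and wild-type 5 at the top. With wild-type 5 left out the difference was -0.010, and with the array labelled knockout 1 left out as well it turned to 0.044.

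Col1a2 (chromosome 6, 4490619 to 4490678) was the one member with a fitted difference above 0. Its wild-type levels ran from -0.89 through a median of -0.36 to 1.03, and its knockout levels from -0.57 through -0.054 to 0.33. All 13 knockout arrays lay inside the wild-type range, which wild-type 1 and wild-type 5 again bounded. The difference was 0.12 (95% interval -0.23 to 0.46, limma adjusted p 0.97), and leaving out wild-type 5 gave 0.27 (unadjusted limma p 0.0458, adjusted p 0.91). Its direction was not stable: it was -0.14 on the arrays of position 2 and -0.010 with both probes averaged. At position 2 the array labelled knockout 1 was at -0.57. Knockout 2 and 3 were at 0.016 and -0.15 there, beside 0.16, -0.43 and -0.025 in wild type. The 2 chains of type I collagen thus had fitted differences of opposite sign, each with an interval that held 0, and the difference between them was not tested.

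Type III collagen, the product of Col3a1, forms fine fibrils in loose and vascular connective tissue. The Col3a1 probe (chromosome 1, 45293290 to 45293349) ran from 0.012 through 0.89 to 1.54 in wild type and from 0.32 through 0.72 to 1.10 in knockout. Every array was above the reference, the 13 knockout arrays lay within the wild-type range, and the difference was -0.11 (95% interval -0.39 to 0.16, limma adjusted p 0.95). Without wild-type 5 it was -0.025, and without wild-type 1 it was -0.22.

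Type V collagen, whose chains include Col5a1 and Col5a2, starts fibrils and limits their width. Col5a1 (chromosome 2, 27859381 to 27859440) ran from 0.026 through 0.51 to 1.19 in wild type and from -0.0011 through 0.49 to 0.86 in knockout. The difference of -0.039 (95% interval -0.30 to 0.22, limma adjusted p 0.99) was the smallest in size of the 10, and it turned to 0.041 without wild-type 5, to 0.0036 without the array labelled knockout 1 and to 0.0071 without wild-type 9. Col5a2 (chromosome 1, 45321322 to 45321381) ran from -0.24 through 0.20 to 0.68 in wild type and from -0.30 through 0.026 to 0.42 in knockout. Its knockout median lay lower, 9 of 13 knockout arrays were below the wild-type median, and the groups overlapped over most of their range. The difference was -0.098 (95% interval -0.30 to 0.10, limma adjusted p 0.94) and was -0.031 without wild-type 5.

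**Figure D1:**
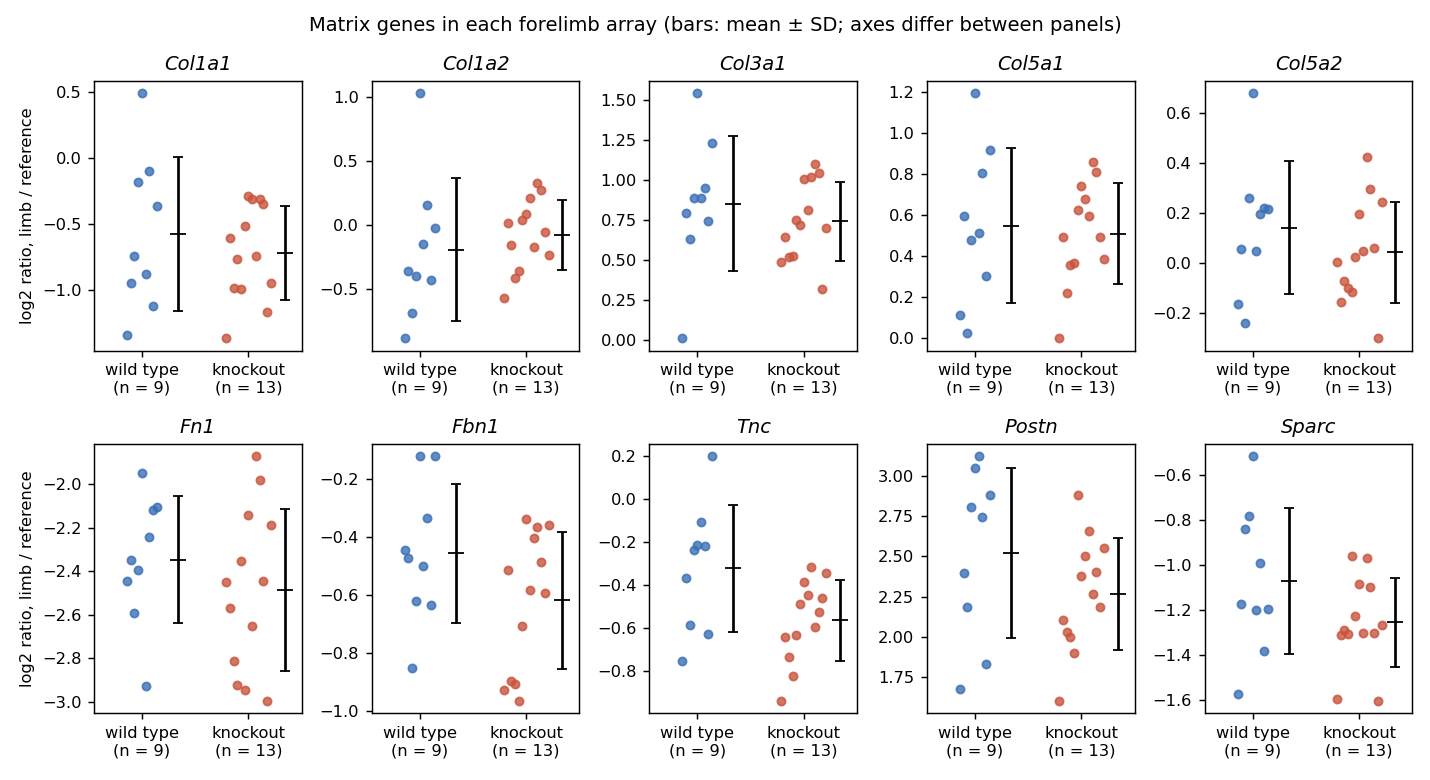
The log2 ratio to the reference RNA (vertical axes) of each of the 10 matrix genes on each of 22 arrays, by genotype, with group means ± SD. The groups overlap in all 10 genes, with Tnc the gene in which all 13 knockout arrays lie below the wild-type median.

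Fibronectin, which binds integrins and collagens, was below the reference on every array. Fn1 ran from -2.93 through a median of -2.35 to -1.95 in wild type and from -3.00 through -2.45 to -1.87 in knockout, at a probe that spans chromosome 1, 71524056 to 71526293. The knockout group held both the lowest and the highest array of the 22, and the difference was -0.14 (95% interval -0.43 to 0.15, limma adjusted p 0.94). On the arrays of position 2 without the array labelled knockout 1 it was -0.54 (unadjusted limma p 0.00321, adjusted p 0.98). That subset, wild-type 7 to 9 against knockout 2 and 3, was chosen after seeing the data. With each array of the full set left out in turn, the Fn1 difference lay between -0.21 without wild-type 6 and -0.091 without wild-type 5. It was -0.076 with the probes averaged and -0.037 relative to all genes with median centring.

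Fibrillin 1, the backbone of microfibrils, was below the reference on every array. Fbn1 (chromosome 2, 124992432 to 124992491) ran from -0.85 through -0.47 to -0.12 in wild type and from -0.96 through -0.58 to -0.34 in knockout. Both groups had an SD of 0.24, and the difference of -0.16 (95% interval -0.37 to 0.042, limma adjusted p 0.92) was smaller than that spread.

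Tenascin C, an anti-adhesive matricellular protein of tendon, perichondrium and condensing mesenchyme, stood out among the members before correction. Tnc (chromosome 4, 63446699 to 63446759) ran from -0.75 through a median of -0.24 to 0.20 in wild type and from -0.94 through -0.53 to -0.32 in knockout. All 13 knockout arrays were below the wild-type median, and 5 of 9 wild-type arrays were above every knockout array, while the other 4 lay inside the knockout range. The means were -0.32 ± 0.30 (SD, n = 9) and -0.57 ± 0.19 (SD, n = 13), a difference of -0.24 (SE 0.099, 95% interval -0.45 to -0.036, unadjusted limma p 0.0230). After adjustment over all tested genes the p was 0.92, so Tnc was not called. Leaving out each array in turn gave -0.29 to -0.18, with an unadjusted p under 0.05 in 21 of 22 fits and a smallest adjusted p of 0.39. With the scanner's log ratio the Tnc difference was -0.23 (unadjusted limma p 0.0601), and 0 of 10 members had an unadjusted p under 0.05. With median centring it was -0.17 relative to all genes (95% interval -0.52 to 0.17). Within slides the difference was below 0 on 6 of 6, from -0.42 to -0.082, and on the arrays of position 2 it was -0.56.

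Periostin, a matricellular protein that binds collagen and tenascin C, was above the reference on every array. Postn (chromosome 3, 54478490 to 54478549) ran from 1.68 through 2.75 to 3.12 in wild type and from 1.60 through 2.27 to 2.88 in knockout. In knockout, 12 of 13 arrays were below the wild-type median, yet wild-type 1 was nearly as low as the lowest knockout array, the one labelled knockout 1. The difference was -0.26 (95% interval -0.61 to 0.10, limma adjusted p 0.93). It lay between -0.36 without wild-type 1 and -0.18 without wild-type 6, and within slides it ranged from -0.78 to 0.037.

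SPARC binds collagen and is needed for normal fibril assembly. Sparc was below the reference on all arrays, from -1.57 through -1.17 to -0.52 in wild type and from -1.60 through -1.29 to -0.96 in knockout, at a probe that spans chromosome 11, 55239370 to 55242027. The groups overlapped, with 9 of 13 knockout arrays below the wild-type median, and the difference was -0.18 (95% interval -0.40 to 0.037, limma adjusted p 0.92). It was -0.11 without wild-type 5.

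Several members had more than 1 probe, and with loess normalisation 19 of the 22 probes had a difference below 0. Of the 21 that were above background often enough to be tested, 19 were below 0. Both Fbn1 probes gave -0.16, and the Sparc probes gave -0.18 and -0.12. The other Col1a1 probes gave -0.093 and -0.060, and the other Fn1 probes gave -0.065 and -0.024, each on the same side as the brightest probe. The second Col5a1 probe gave -0.14, larger in size than the -0.039 of the probe used. Col1a2 and Col3a1 had probes of opposite sign. The dimmer Col1a2 probe, above background on 5 wild-type and 6 knockout arrays, gave -0.14, and the second Col3a1 probe gave 0.090. The third Col3a1 probe was above background on no array. The dim Tnc probes gave -0.13 and -0.034, smaller in size than the -0.24 of its brightest probe, and the mean over the Tnc probes was -0.14. Probes of 1 gene share its RNA and are not replicates.

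**Figure D2:**
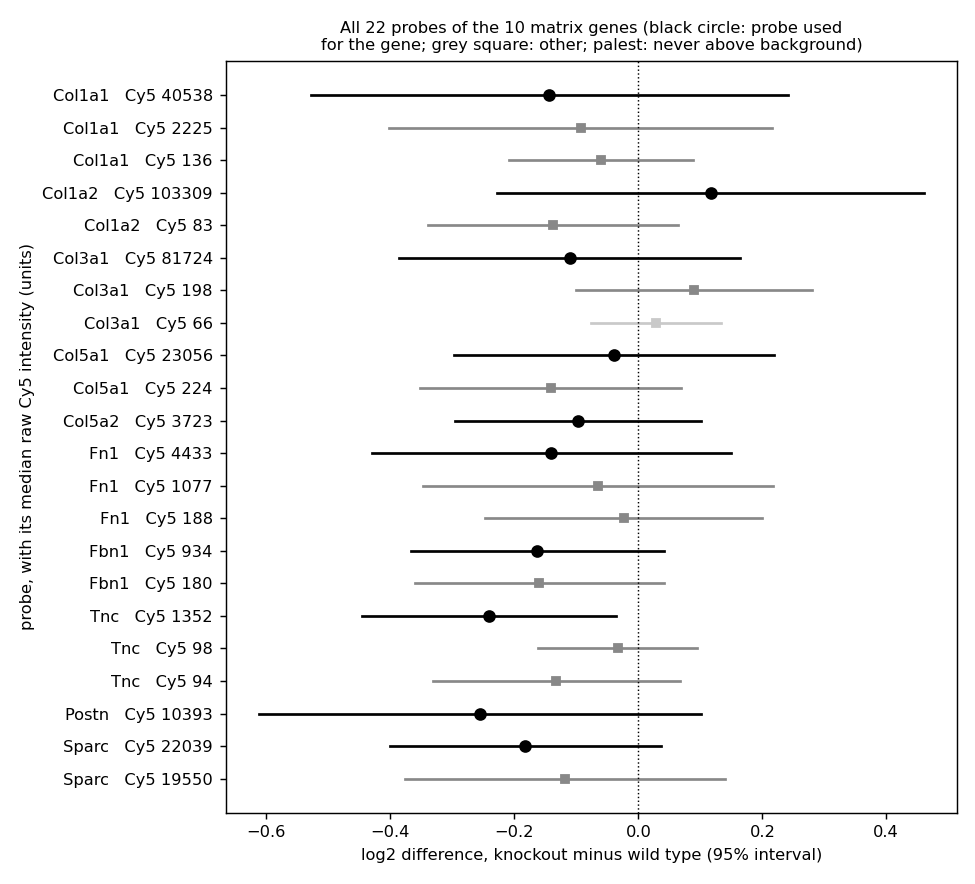
The knockout minus wild-type log2 difference (horizontal axis) with its 95% interval for each of the 22 probes, with the median raw Cy5 intensity of the probe beside its gene. With loess normalisation, 19 of the 22 probes lie below 0, and the brightest probe of Tnc is the one whose interval leaves out 0.

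For Col1a1 and Fn1, the spread between arrays was far above the typical spread between spots of an array. The probes used for the other members had 1 spot each, so the spread between spots was not measured for them. The Col1a1 and Fn1 probes used were each printed in 10 spots. Within an array the SD over the spots of Col1a1 had a median of 0.018 and reached 0.029, against 0.58 and 0.36 between the arrays of wild type and knockout. For Fn1 the median was 0.019, with 0.14 on 1 array, against 0.29 and 0.37. All 10 members varied more within genotypes than the typical gene, with a residual SD of 0.23 to 0.46 (median 0.32) beside a median of 0.19 over all genes. The SD was larger in wild type for 9 of 10 members, which was so for 76% of all tested genes. With wild-type 1 and wild-type 5 left out it was larger in wild type for 6 of 10. These arrays were picked for their extreme values in the same members, and no knockout array was left out. The share over all genes was not computed for that setting.

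The members' levels tracked each other from array to array. Wild-type 5 was above the wild-type median in all 10 and was the highest wild-type array in 7, with a mean deviation of 0.68 from each gene's mean. Wild-type 1 was the lowest wild-type array in 6, with a mean deviation of -0.42. Among the knockout arrays, the one labelled knockout 1 was the lowest in 5 (mean deviation -0.41) and knockout 12 in 4 (-0.25). Knockout 4 and the array labelled knockout 1 were below the wild-type median in all 10, while knockout 7, 9 and 10 were above it in 8 of 10.

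**Figure D3:**
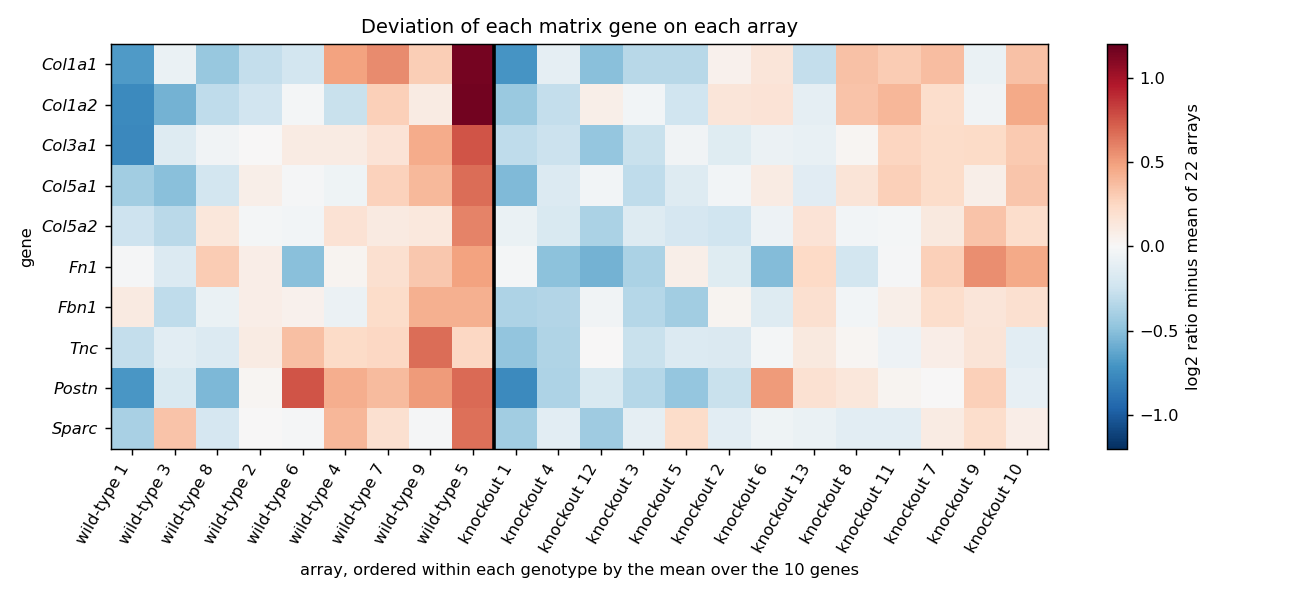
Deviation of each matrix gene (rows) on each array (columns) from that gene's mean over the 22 arrays, in log2 units, by colour. Wild-type 5 is above the mean throughout, and wild-type 1 and the array labelled knockout 1 are below it in nearly all genes.

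After subtracting each genotype's mean, Pearson's r over the 22 arrays lay between 0.067 and 0.91 for the 45 pairs of members (median 0.63), and 35 were above 0.5 and 0 below 0. All arrays share the reference RNA, and each slide held several arrays, so these values are descriptions without a p. The share of such pairs over all genes was not computed, so they do not show a trait particular to the members. The 10 pairs among the 5 collagens had the closest relation as a group, from 0.63 to 0.91 (median 0.81), and from 0.35 to 0.90 without the 2 arrays farthest out. Fn1 was the loosest, with a median of 0.41 over its 9 pairs. The closest pair was Col1a2 with Col5a1 (r 0.91, Spearman's rho 0.92), followed outside the collagens by Tnc with Postn (r 0.86, rho 0.86).

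These 2 closest pairs are the reason for showing the following promoters, the 150 bases before an annotated start from RefSeq on GRCm38.p6, written 5′ to 3′ on the gene's strand. Of the 10 members, 7 have such a window in the table used. Capitals mark a match, on either strand, to the core of the TATA box (TATAA), of the CAAT box (CCAAT) or of the GC box (GGGCGG), which do not overlap each other here. Where 2 starts are annotated, the more downstream one is shown. The windows are Col1a2 at chr6:4505468-4505617 on the plus strand, Col5a1 at chr2:27886275-27886424 on the plus strand, Tnc at chr4:64046937-64047086 on the minus strand and Postn at chr3:54360957-54361106 on the plus strand.
Col1a2: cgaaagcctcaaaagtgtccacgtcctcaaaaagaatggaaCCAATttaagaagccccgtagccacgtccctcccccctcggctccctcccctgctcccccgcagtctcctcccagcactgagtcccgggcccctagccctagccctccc
Col5a1: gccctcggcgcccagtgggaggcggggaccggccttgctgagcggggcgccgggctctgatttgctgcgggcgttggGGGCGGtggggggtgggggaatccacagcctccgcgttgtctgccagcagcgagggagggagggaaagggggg
Tnc: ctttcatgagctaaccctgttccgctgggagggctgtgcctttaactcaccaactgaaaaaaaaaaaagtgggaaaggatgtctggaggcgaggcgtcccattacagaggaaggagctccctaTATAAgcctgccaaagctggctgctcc
Postn: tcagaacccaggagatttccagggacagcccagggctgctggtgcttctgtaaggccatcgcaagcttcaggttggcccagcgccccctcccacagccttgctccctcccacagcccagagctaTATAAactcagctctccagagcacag
Tnc and Postn each held TATAA, beginning 27 and 26 bases before the annotated start, and TATAA occurred in 14.2% of all 32843 windows of that length. The window of the other annotated Postn start held no TATAA. Among the 7 members with a window, 3 held TATAA in at least 1 window, the third being Col3a1. Col1a2 held CCAAT 109 bases before its start (24.5% of all windows), and Col5a1 held GGGCGG 73 bases before its start (28.6%). The collagen pair shared none of these 3 cores. A match describes letters in the window and is no evidence of binding.

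Outside the members, the named genes most like Col1a1 over the 22 arrays by the same measure were Arhgef4 (r 0.90), Ltbp4 (0.90) and Col16a1 (0.88), out of 16091 candidates. For Fn1 they were Prpf8, Sulf2 and Col4a2, each at 0.92, and for Tnc they were Igf2r (0.86), Ncam1 (0.85) and Akap6 (0.82). With another member, the highest r was 0.84 for Col1a1, 0.75 for Fn1 and 0.86 for Tnc. Ltbp4 encodes a microfibril-associated protein, and Col16a1 and Col4a2 encode collagens of fibril surfaces and of basement membranes.

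Slides gave different directions for the members as a group. On slides 1 and 2 the difference was below 0 in 4 of 10 members, with medians of 0.081 and 0.083. On slide 3 it was below 0 in 8 (median -0.22), on slide 4 in 7 (-0.13) and on slide 6 in 6 (-0.057). Slide 5, where wild-type 5 was the only wild-type array, had 10 of 10 below 0 and a median of -0.74. With slide as a block in the fit, 9 of 10 members were below 0 with a median of -0.17, and 0 were called.

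**Figure D4:**
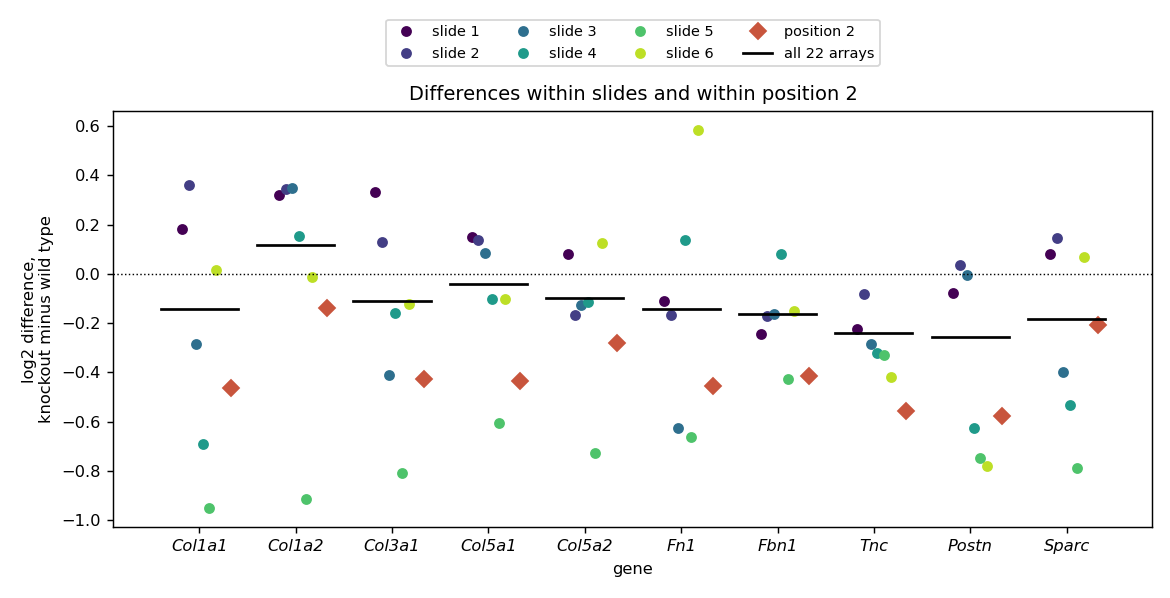
Knockout minus wild-type log2 difference of each matrix gene within each of the 6 slides and within position 2. The members lie on both sides of 0 on 5 of 6 slides and wholly below it on slide 5, which holds wild-type 5, and at position 2.

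Other genes of the pathway were taken from 5 lists of 79 genes in all, of which 77 were tested. None was called (0 of 77, smallest limma adjusted p 0.88), 9 had an unadjusted p under 0.05 beside 5.33% of all genes, and 56 had a difference below 0 beside 53.4%. Their median difference was -0.072. The count of 9 depended on the setting. It was 2 with position as a block, beside 153 of 18638 genes, and 24 with median centring, beside 7213. Genes of these lists share the same arrays, so the counts are not of independent results.

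Among 12 other fibrillar and fibril-associated collagens, 10 were below 0, with a median of -0.10. Col5a3, a further type V chain, was at -0.30, while Col11a1 and Col11a2, chains of the cartilage fibril, were at 0.0043 and -0.075, and Col24a1 was at -0.055. The enzymes and chaperones of collagen folding, cross-linking and processing were below 0 in 17 of 23, with a median of -0.072. Serpinh1, the collagen chaperone HSP47, was at -0.20, and the prolyl hydroxylase subunits P4ha1, P4ha2 and P4hb were at -0.12, -0.0082 and -0.072.

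Elastic fibre and microfibril genes were below 0 in 9 of 14, with a median of -0.078. Elastin itself, Eln, was at -0.12 and the second fibrillin, Fbn2, was at -0.20, while the fibulins Fbln1 and Fbln2 were at -0.078 and 0.044. Matricellular and fibril-binding proteins were below 0 in 10 of 15 tested, with a median of -0.18. Their first tested members were the tenascin Tnxb at 0.014, the thrombospondins Thbs1 at -0.18 and Thbs2 at -0.24, and the SPARC relative Sparcl1 at 0.19.

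The receptors that bind these proteins were nearest 0 as a list: 10 of 13 tested were below it, with a median of -0.032. The shared integrin chain Itgb1 was at -0.036, the fibronectin receptor chain Itga5 at -0.0027, and the collagen receptor chains Itga1 and Itga11 at -0.030 and 0.37.

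**Figure D5:**
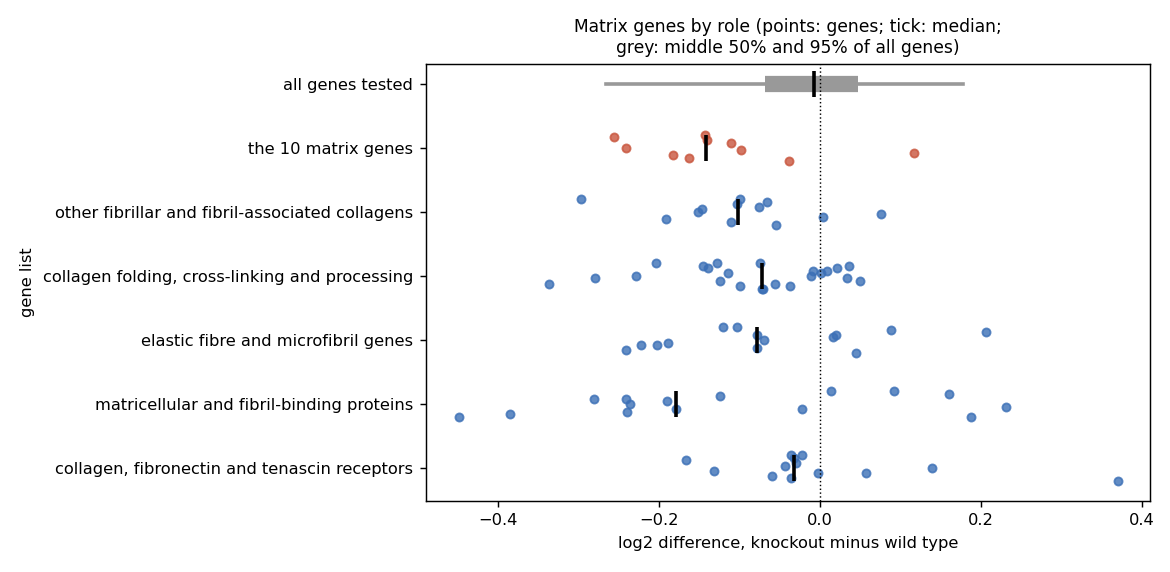
Knockout minus wild-type log2 difference of each tested gene of the 10 members and of the 5 pathway lists, with the median of each. The medians run from -0.18 in the matricellular list to -0.032 in the receptor list, and no gene shown passed the adjusted threshold.

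Markers of other cell types were measured beside the members on the same arrays. Over the 9 cartilage markers the difference was below 0 in 8, and the list's mean deviation lay between -1.03 and 0.63 in wild type and between -0.60 and 0.36 in knockout, a difference of -0.23. Skeletal muscle markers were below 0 in 7 of 8 tested, osteoblast markers in 5 of 5, surface ectoderm and endothelium markers in 6 of 6 each, and tendon markers in 3 of 5, beside 53.4% of all genes. Above 0 were 7 of 10 limb mesenchyme, 5 of 5 Schwann cell and 5 of 6 macrophage markers, and the erythroid list and the list of liver and trunk genes were evenly divided. No marker of the 12 lists was called. Wild-type 1, low in most members, was at -0.86 in the limb mesenchyme list, -1.03 in the cartilage list and -1.23 in the endothelium list. Knockout 12, the lowest knockout array in 4 members, was at -0.61, -0.60 and -0.94 in the same lists, where the next lowest knockout arrays were at -0.061, -0.29 and -0.16. Without both arrays no member was called. The part of these markers in the members' values was not tested.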

How the data were processed

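The submitters' processing notes name Agilent Feature Extraction 9.5 as the scanner software, and the headers give 9.5.3.1. The deposited mean and background intensities are raw per the file headers, the deposited ratio is the log10 of processed Cy5 over Cy3, the outlier, saturation and above-background flags are a 0 or 1 score, and the value table held the same log10 ratios. From these, mean intensities were corrected with normexp (offset 50) against background medians and normalised by loess within arrays, with control and outlier spots at weight 0. Spots of a probe were averaged, and testing was limited to probes whose Cy5 was well above background on 9 or more arrays. Names were updated through a GRCm38.p6 table used only for names and promoters: 23374 probes matched by accession, 109 by another accession, 6678 by current and 2886 by older symbol, 1740 kept the design's name and 6387 had none. The brightest probe stood for each gene. Probe coordinates are those of the files (mm8), and they were not annotated further. One further probe, A630052E07Rik, an older name of Postn in that table, was not counted as a member and differed by 0.024.

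Differences were estimated by lmFit and eBayes of limma 3.58.1 (R 4.3.3) over the 22 arrays without covariates, with Benjamini-Hochberg adjustment over 18638 genes and unnamed probes and a threshold of 0.05. The fit was tested on simulated data whose noise was independent between genes and arrays. That simulation does not cover the members' shared movement or the tie between genotype and position. The genes named are all members with every probe, Chsy1, the first 4 tested genes of each pathway list and any called, and the 3 genes most like Col1a1, Fn1 and Tnc. The members and lists were chosen with earlier results of these data known. Alternatives covered background correction, normalisation, probe choice and filter, array weights, another variance model, blocks (slide, position, replicate number) and omission of arrays.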

Additional observations from a re-analysis of the deposited data

Results flagged for a closer look

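In the wild-type group, no matrix gene held an array that stood far from the rest. The knockout group, with 13 arrays, was not tested in this way. Among the wild-type values of 12 marker lists, the 10 members and Chsy1, 4 of 23 had such an array, where chance gives about 1 in 20, and in each it was wild-type 1. The 23 share the same arrays, so the 4 are not independent and their number cannot be weighed against that rate. The mean deviation of wild-type 1 was -0.859 in the forelimb and limb mesenchyme list (nearest array -0.217), -0.808 in the hindlimb list (-0.186), -1.23 in the endothelium list (0.084) and -0.615 in the Schwann cell list (-0.135). Without wild-type 1 the members' median difference was -0.19, against -0.14 with it.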

How the results depend on the processing

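No member and no pathway gene was called under any alternative run, and 7 to 10 of 10 members were below 0, for median centring only relative to the median of all genes (8 of 10; 0 of 10 before subtracting it); in the full set, 1 member and 9 pathway genes had an unadjusted limma p under 0.05. The count of all called genes was 4, and 2 to 6 with each array left out in turn. It was 1 with the scanner's log ratio, with median centring, under which the median gene stood at 0.24 and the share below 0 from 53.4% to 18.4%, with slide or position as a block, and, chosen after seeing the data, without wild-type 1 and knockout 12, without wild-type 5 and the array labelled knockout 1, or on position 2 without the latter. Without wild-type 1 and the array labelled knockout 1 it was 2. On position 2 limma called 0 genes, with 436 at an unadjusted p under 0.05, and the Chsy1 difference was -4.66, no longer past the threshold there (adjusted p 0.9995); the array labelled knockout 1 is 1 of 3 knockout arrays there. The members' median was -0.43 on position 2 and with position as a block, and -0.036 with median centring, relative to all genes, as are the differences that follow for that setting. Col5a1 turned to 0.071 with median centring, 0.013 with the Cy5 channel alone and 0.084 without wild-type 5 and the array labelled knockout 1, and ran from -0.10 to 0.041 with each array left out. Col1a2 turned to -0.010 with probes averaged, -0.14 with position as a block and on position 2, and -0.069 with array weights. Col1a1 turned to 0.044 without wild-type 5 and the array labelled knockout 1. The cause was not tested. Shared replicate numbers did not pair the samples (r from -0.31 to 0.49 over 9 pairs, 3 above 0.1, 1 closest to its own number), and with the replicate number as a block 1 gene was called.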
